A study of Mus musculus with 21 samples.

Results

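The genes described here encode the proteins of the cytosolic ribosome, and they were measured in the cortex of C57BL/6 male mice aged 12 weeks. Members were all rows of the expression table whose Ensembl identifier carries a GENCODE mouse symbol beginning with Rpl or Rps and a number, together with Rplp0, Rplp1, Rplp2 and Rpsa, leaving out the S6 kinases. The rule found 78 of 5544 genes, 47 of the large subunit and 31 of the small subunit, and all 78 are protein-coding. In the annotation 92 protein-coding genes match the rule, and the 14 with no row in the table are paralogs, retrocopies and relatives such as Rpl3l, Rpl10l, Rpl22l1 and Rps27l. Brain cortex was taken 24 h after the last procedure from 10 sham mice and from 11 mice given high-frequency head impact (HF-HI). Both groups went through the same repeated isoflurane anesthesia and handling, and only the HF-HI group received the series of closed-head impacts. All libraries are labelled wild type, and no allele or drug separated the groups. Each library is 1 mouse by the study's methods, and the cortex was homogenized whole, so a value is an average over neurons, glia and vessels. In such bulk tissue fewer cells of a type and less RNA per cell cannot be told apart.

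A cytosolic ribosome is made of a large (60S) and a small (40S) subunit, each an RNA scaffold dressed with proteins, most of them in a single copy. The small subunit reads the mRNA, and the large subunit joins the amino acids and passes the growing chain out through its exit tunnel. Most ribosomal protein mRNAs start with a C followed by a run of C and T bases, the TOP motif, through which the kinase mTORC1 and the RNA-binding protein Larp1 adjust their translation and stability together. In neurons ribosomes also sit in dendrites and near synapses, where mRNAs are translated away from the cell body.

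The start regions below show how alike and how different these promoters are, and they were printed for the members called higher and for the 5 largest falls that have a single start in the RefSeq table. RefSeq promoters of GRCm38.p6 were matched by symbol for 58 of the 78 members. Each line runs from 50 bases before to 20 bases from the RefSeq start, 5′ to 3′ on the gene's strand, and capitals mark the longest run of C and T within 20 bases of the start where it has at least 6 bases. The first 4 are members that were higher in HF-HI, and the other 5 were lower.
Rps16 (chr7:28350639-28350708, plus strand): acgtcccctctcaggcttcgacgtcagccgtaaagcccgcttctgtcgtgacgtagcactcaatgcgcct
Rpl11 (chr4:136053374-136053443, minus strand): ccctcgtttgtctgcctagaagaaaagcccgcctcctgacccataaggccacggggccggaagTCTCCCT
Rps28 (chr17:33824543-33824612, minus strand): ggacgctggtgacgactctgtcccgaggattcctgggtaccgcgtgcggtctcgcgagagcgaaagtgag
Rps26 (chr10:128626487-128626556, minus strand): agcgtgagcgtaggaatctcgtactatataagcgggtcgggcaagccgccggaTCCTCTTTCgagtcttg
Rpl26 (chr11:68901516-68901585, plus strand): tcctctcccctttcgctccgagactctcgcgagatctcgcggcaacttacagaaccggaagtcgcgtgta
Rps12 (chr10:23787190-23787259, minus strand): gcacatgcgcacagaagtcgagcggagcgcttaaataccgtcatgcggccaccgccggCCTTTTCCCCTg
Rpl9 (chr5:65391412-65391481, minus strand): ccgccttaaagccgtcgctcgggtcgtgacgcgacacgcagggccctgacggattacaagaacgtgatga
Rpl24 (chr16:55966225-55966294, plus strand): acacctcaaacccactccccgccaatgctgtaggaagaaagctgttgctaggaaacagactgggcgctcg
Rpl38 (chr11:114668530-114668599, plus strand): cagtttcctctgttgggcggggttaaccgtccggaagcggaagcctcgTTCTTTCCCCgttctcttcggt

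A C and T run of at least 6 bases near the start was found in 37 of the 58 members with a promoter (63.8%), against 37.4% of all 27025 RefSeq promoters of the same length. Among these members it was present in 27 of 46 that were called lower, in 2 of 4 called higher and in 8 of 8 not called. The letters CCGGAAG, on either strand of the 300 bases, occurred in 39.7% of the members and 9.14% of all promoters. The letters AAGATGG occurred in 15.5% and 6.46%, and TATAAA in 10.3% and 14.2%. For Rps16 the letters AAGATGG occurred on the opposite strand of the 300 bases, outside the stretch printed, and the longest C and T run within 20 bases of its start had 5 bases, with a longer run further upstream in the printed line. These matches describe the letters of the RefSeq windows and mark no transcription start measured in these mice.

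The ribosomal protein genes were mostly lower in HF-HI cortex. In the limma fit, with p-values adjusted by Benjamini-Hochberg over all 5544 genes, 58 of the 78 members fell, 6 rose and 14 did not pass an adjusted p of 0.05. Of all genes tested 66.3% passed, with 33.6% lower and 32.6% higher, so calls were common in the table. The split over all genes was 26.1% higher and 42.9% lower after centring on library medians, where 5 members were higher and 60 lower, and 17.8% higher and 8.04% lower when a difference of at least 0.25 was also asked, where 4 members were higher and 47 lower. The median difference of the members was -0.30 on the variance-stabilized log2 scale, with an interquartile range of -0.39 to -0.15, against -0.01 over all genes, with an interquartile range of -0.15 to 0.17. All 11 HF-HI libraries lay below all 10 sham libraries for 19 members, and such a separation was found in 4.76% of the table. Only Rps16 and Rps29 were separated in the other direction, where 8.71% of the table was. The falls were small, and the rises were few and of unequal size. The largest fall was 0.56 on the log2 scale, or 1.48-fold, and the largest rise was 3.55.

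**Figure D1:**
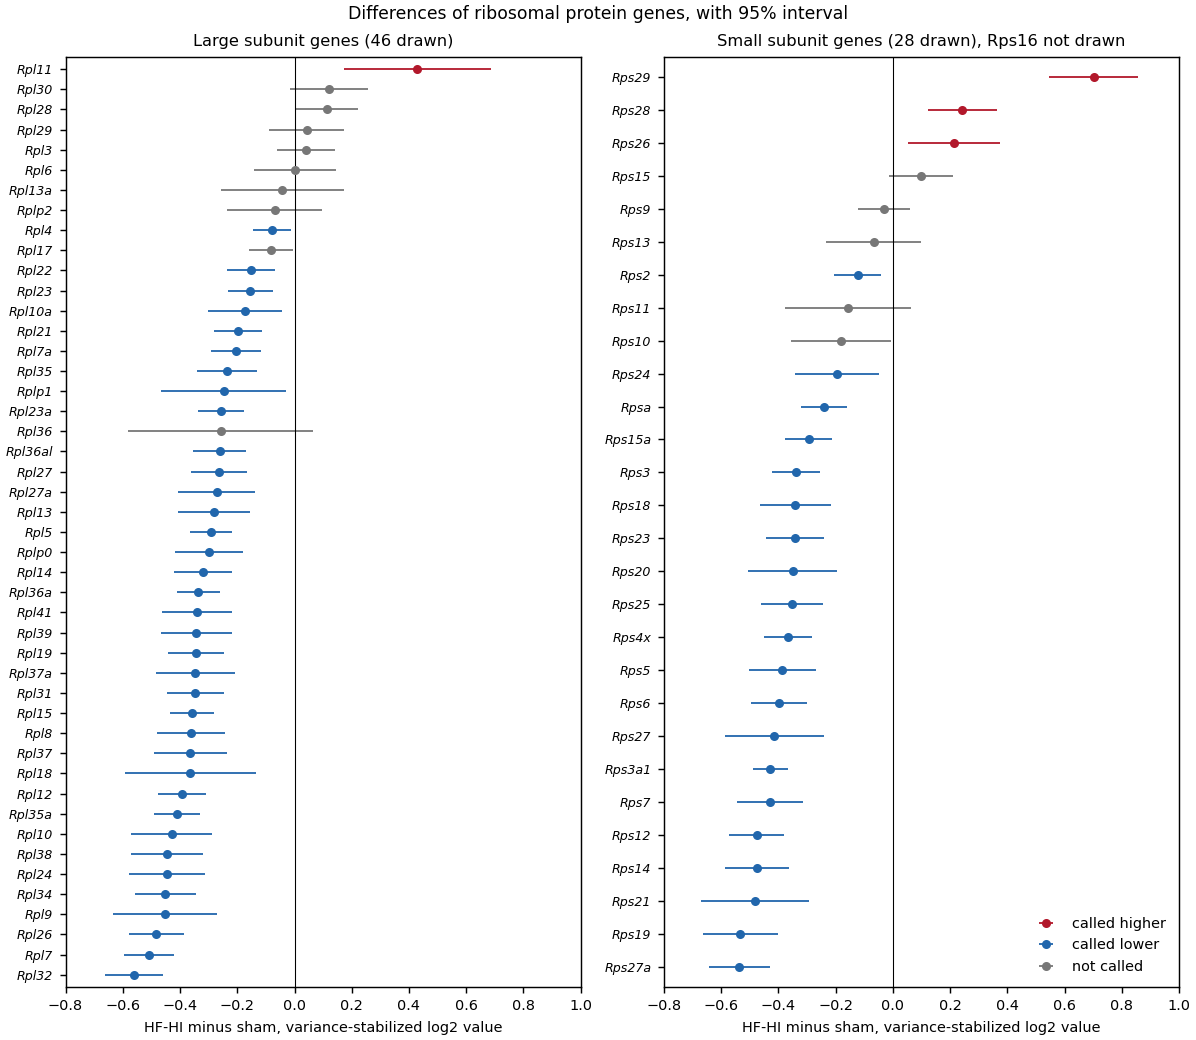
Difference between HF-HI (n = 11) and sham (n = 10) for 46 large subunit genes (left) and 28 small subunit genes other than Rps16 (right), in variance-stabilized log2 units, with bars for the 95% interval of the limma fit and colour for the call. Most points lie left of 0, between -0.56 and -0.08, and the 4 red points lie between 0.21 and 0.70.

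Rps16 stood apart from every other member. Its protein sits in the head of the small subunit, where its tail reaches the peptidyl tRNA. Rps16 (ENSMUSG00000037563, chr7:28350652-28353155, plus strand, GRCm38) had values in sham libraries 1 to 10 of 5.72, 5.72, 5.71, 6.55, 6.53, 6.82, 6.85, 6.52, 6.57 and 6.54. In HF-HI libraries 1 to 11 it had 9.86, 9.80, 9.90, 9.98, 9.91, 10.02, 9.84, 10.23, 10.17, 9.32 and 9.93. No HF-HI value came near a sham value, and within sham the libraries 1, 2 and 3 formed a lower cluster, between 5.71 and 5.72, below the other 7. The sham mean was 6.35 ± 0.46 (SD, n = 10) and the HF-HI mean 9.91 ± 0.24 (SD, n = 11), a difference of 3.55 ± 0.14 (SE; limma, adjusted p = 1.14e-14), or 11.7-fold on this scale. This was the largest absolute difference of any gene in the table. Because a variance-stabilizing transform compresses low values, 11.7 is not the ratio of the underlying counts.

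Set beside the other members, Rps16 was far below them in sham and among them in HF-HI. In 10 of 10 sham libraries it had the lowest value of the 78 members, and in 0 of 11 HF-HI libraries. In HF-HI it took between the 6th and the 34th place from below. Relative to the mean of the other 77 members, its value was -4.93 to -3.63 in sham and -1.03 to -0.04 in HF-HI. Per kb of its median coding transcript, the sham mean of Rps16 was 6.20 on the log2 scale, and the next lowest members were Rps20 at 8.28 and Rpl22 at 8.60. The places of Rps20 and Rpl22 rest on long annotated transcripts, of 3706 and 2048 bases. Without the division by length their sham means were 10.17 and 9.63. The highest members per kb were Rpl41 at 12.69 and Rplp1 at 12.73. Without sham libraries 1 to 3 the Rps16 difference was 3.28 ± 0.09 (SE). Every 100-base window of the Rps16 coding sequence also occurs in at least 1 other annotated gene, 2 genes in all and neither with a row in this table. Sharing outside the coding sequence, and the part of reads split between copies in the Rps16 value, were not tested. A snoRNA lies within the Rps16 gene, as in 30 of the 78 members.

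**Figure D2:**
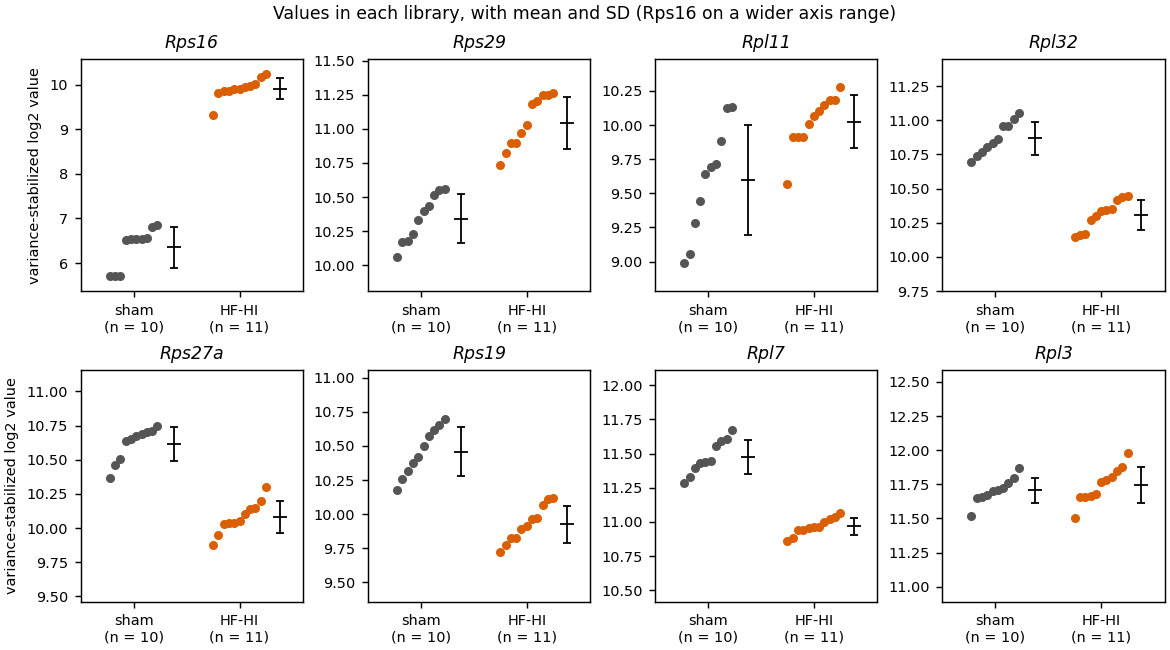
Values of 8 members in each library in variance-stabilized log2 units, one point per mouse, with the mean and SD beside each group (sham n = 10, HF-HI n = 11). Rps16 and Rps29 are above sham in all HF-HI libraries, Rpl11 overlaps, Rpl32, Rps27a, Rps19 and Rpl7 are below in all, and Rpl3 did not pass the test.

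The rows mt-Rnr1, mt-Rnr2 and Gm42418, which hold ribosomal RNA, moved in the same direction as Rps16. The mitochondrial 12S rRNA, mt-Rnr1, had the second largest difference of the table and went from 11.57 to 15.18 in sham to 15.86 to 17.20 in HF-HI. Gm42418, a locus that overlaps nuclear rRNA repeats, rose by 2.33 ± 0.77 (SE), from 8.17 to 12.39 in sham to 10.14 to 17.49 in HF-HI, and its highest value was that of HF-HI library 9. The other mitochondrial rRNA row, mt-Rnr2, rose by 1.24 ± 0.11 (SE), without overlap between groups. Lars2, a protein-coding row looked at beside them, did not pass (1.33, adjusted p = 0.102 by limma). The Lars2 median was 7.49 in sham and 7.52 in HF-HI, and the range was 7.18 to 8.75 in sham and 7.19 to 15.35 in HF-HI. For Lars2 and for Gm42418 the same 5 of 11 HF-HI libraries (3, 4, 8, 9 and 11) lay above the highest sham library. The other HF-HI libraries lay within the sham range for both rows. The libraries had been depleted of rRNA before sequencing, and the part of rRNA carried over in the Rps16 result was not tested.

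Rps29, a zinc-binding protein of the small subunit head, had the second largest rise of the members. Its values were 10.06 at the lowest, 10.36 at the median and 10.56 at the highest in sham, and 10.74, 11.03 and 11.26 in HF-HI. The groups did not overlap, and the difference was 0.70 ± 0.07 (SE, limma, adjusted p = 4.93e-08), or 1.63-fold. Rps29 (ENSMUSG00000034892) lies at chr12:69157722-69159186 on the minus strand and, like Rps16, shares every coding window with another annotated gene.

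The remaining rises were smaller, and the groups overlapped. Rpl11, which with Rpl5 and the 5S rRNA forms a particle that can bind the p53 regulator Mdm2, ranged from 8.99 to 10.13 (median 9.67) in sham and from 9.57 to 10.28 (median 10.07) in HF-HI. Its difference was 0.43 ± 0.12 (SE; limma, adjusted p = 0.00416), and sham libraries 1 to 3 were again low, at 8.99 to 9.28 against 9.44 to 10.13 in the other sham libraries. Without these 3 libraries Rpl11 differed by 0.22 and no longer passed (adjusted p = 0.055). Rps28, near the mRNA exit of the small subunit, rose by 0.24 ± 0.06 (SE; limma, adjusted p = 0.00091). Rps26, which lines the mRNA exit channel, rose by 0.21 ± 0.08 (SE; limma, adjusted p = 0.0193), and this call was lost by a rank-sum test, after centring on library medians, after quantile normalization and without sham libraries 1 to 3 (adjusted p between 0.0504 and 0.106).

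The strongest falls came from both subunits. Rpl32 (ENSMUSG00000057841, chr6:115805505-115808747, minus strand), a large subunit protein, had sham values of 10.69 at the lowest, 10.85 at the median and 11.05 at the highest, and HF-HI values of 10.15, 10.33 and 10.45. Every HF-HI library was below every sham library. The difference was -0.56 ± 0.05 (SE; limma, adjusted p = 3.15e-09), and no coding window of Rpl32 occurs in another annotated gene. Rps27a (chr11:29545846-29548109, minus strand) encodes ubiquitin fused to a small subunit protein. It ranged from 10.37 to 10.75 (median 10.66) in sham and from 9.87 to 10.30 (median 10.05) in HF-HI, without overlap, and fell by 0.54 on the log2 scale (adjusted p = 1.02e-08).

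Rps19, the small subunit gene most often mutated in Diamond-Blackfan anemia, ranged from 10.18 to 10.69 in sham (median 10.46) and from 9.72 to 10.12 in HF-HI (median 9.91). Rpl7, a large subunit protein, ranged from 11.28 to 11.67 in sham (median 11.44) and from 10.86 to 11.06 in HF-HI (median 10.96). The groups were separate for both, with falls of 0.53 and 0.51 on the log2 scale. Rpl26, at the rim of the exit tunnel, and Rps14 and Rps12 of the small subunit fell by 0.47 to 0.48 with no overlap between groups. Rps21 and Rpl9 fell by 0.48 and 0.45 with overlapping groups, since their spread was wider (SD 0.20 and 0.24 in sham). The steadiest fall was that of Rps3a1, a small subunit protein. It had values of 11.43 to 11.56 in sham and 10.91 to 11.17 in HF-HI, so a difference of -0.43 ± 0.03 (SE) carried an adjusted p of 1.24e-10 by limma.

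Large and small subunit genes fell by similar amounts. Of the 47 large subunit genes 36 fell, 2 rose and 9 did not pass, with a median difference of -0.28 and an interquartile range of -0.36 to -0.15. Of the 31 small subunit genes 22 fell, 4 rose and 5 did not pass, with a median of -0.34 and an interquartile range of -0.42 to -0.14. Within a library, the mean of the small subunit genes other than Rps16 minus the mean of the large subunit genes was 0.04 to 0.13 in sham (median 0.07) and -0.03 to 0.12 in HF-HI (median 0.07). The groups overlapped on this measure, and HF-HI library 9 was the one negative value. With a GC trend removed, the medians became -0.38 for the large and -0.35 for the small subunit, so their order depends on that step.

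**Figure D3:**
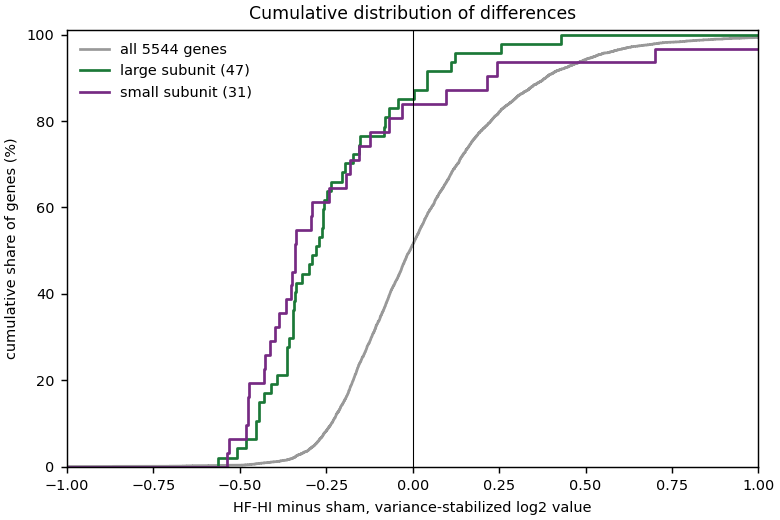
Cumulative share of genes (%) against the HF-HI minus sham difference in variance-stabilized log2 units, for all 5544 genes and for the 47 large and 31 small subunit genes. The curves of both subunits rise left of the curve of all genes and cross each other, with medians of -0.28 and -0.34 against -0.01; Rps16 lies beyond the right edge.

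Within the small subunit, the 14 genes of the head, which holds the mRNA and tRNAs in place, included 3 of its 4 rises. This group was formed after the values were seen, so its counts only describe these data. In the head 9 genes fell (64.3%) and 3 rose (21.4%: Rps16, Rps28 and Rps29), with a median of -0.35. Outside the head 13 of 17 fell (76.5%) and 1 rose (5.88%: Rps26), with a median of -0.29. Over all genes 33.6% were lower and 32.6% higher. Rps6, the classic target of the S6 kinases, fell by 0.40 (SE 0.05; limma, adjusted p = 2.24e-07), from 11.08 to 11.54 in sham to 10.75 to 10.98 in HF-HI, with no overlap. Rpsa, also known as the laminin receptor and a protein of the small subunit's back, fell by 0.24 ± 0.04 (SE), from 11.67 to 11.98 in sham to 11.49 to 11.77 in HF-HI.

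At the rim of the peptide exit tunnel 7 of 8 large subunit genes fell, with a median of -0.30, and Rpl17 did not pass (-0.08, adjusted p = 0.052). The tunnel, P-stalk and 5S groups were also formed after the values were seen. Rpl39, which lines the tunnel, fell by 0.34 (SE 0.06). Rpl22, an RNA-binding protein with a known role outside the ribosome, fell by 0.15 (SE 0.04). In the P-stalk, which recruits the GTPases of translation, Rplp0 fell by 0.30 (SE 0.06) and Rplp1 by 0.25 (SE 0.11; limma, adjusted p = 0.0439), whereas Rplp2 differed by -0.07 (adjusted p = 0.461). The Rplp1 call was lost in 11 of 21 fits that left out 1 library and with the replicate block (-0.23, adjusted p = 0.0941). Rplp2 differed by -0.13 without sham library 10 and by -0.02 without HF-HI library 2, and passed in 0 of the 21 fits. The 5S particle was split, since Rpl5 fell by 0.29 ± 0.04 (SE; limma, adjusted p = 2.93e-07), from 11.32 to 11.66 in sham to 11.19 to 11.32 in HF-HI, while its partner Rpl11 rose as given above.

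Rpl10, which joins the large subunit late and reaches the catalytic center, fell by 0.43 (SE 0.07; limma, adjusted p = 1.07e-05). Rpl38, whose loss in mice alters the axial skeleton, fell by 0.44 (SE 0.06), from 10.52 to 11.04 in sham to 10.18 to 10.63 in HF-HI. Rpl3, a protein of the catalytic center, did not pass (0.04, 95% interval -0.06 to 0.14), and its sign turned after centring on library medians (-0.011), after removal of the GC trend (-0.036) and with relative depth as a covariate (-0.011). The member with the widest interval was Rpl36, with a difference of -0.26 and a 95% interval of -0.58 to 0.06. Rpl36 passed with the GC trend removed (-0.57, adjusted p = 0.000719), with GC and length trends removed (-0.46, adjusted p = 0.00343) and with relative depth as a covariate (-0.44, adjusted p = 0.00797), and its difference was -0.16 without sham 1 to 3 and -0.16 without HF-HI library 9.

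Near the threshold, Rps26 (adjusted p = 0.0193), Rpl4 (0.0363) and Rplp1 (0.0439) were the last members to pass by limma, and Rpl17 (0.052), Rps10 (0.0623) and Rpl28 (0.0629) were the first that did not. The Rpl4 call held in 10 of 21 fits that left out 1 library and was lost with the GC trend removed (-0.06, adjusted p = 0.105), with GC and length trends removed (-0.02, adjusted p = 0.523) and with relative depth as a covariate (-0.07, adjusted p = 0.0948). Of the other three, Rpl17 passed in 5 of 21 such fits, after centring on library medians (-0.14, adjusted p = 0.00284), after quantile normalization (0.0242) and without sham 1 to 3 (-0.14, adjusted p = 0.00101). Rps10 passed in 7 of 21, after centring (0.0165) and quantile normalization (0.0235), with the GC trend removed (-0.44, adjusted p = 1.06e-05), with GC and length trends removed (-0.38) and with relative depth as a covariate (-0.26, adjusted p = 0.00708). Rpl28 passed in 3 of 21 and with the replicate block (0.13, adjusted p = 0.0396). The differences of these 6 members were 0.21, -0.08 and -0.25 inside the threshold and -0.08, -0.18 and 0.11 outside it.

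**Figure D4:**
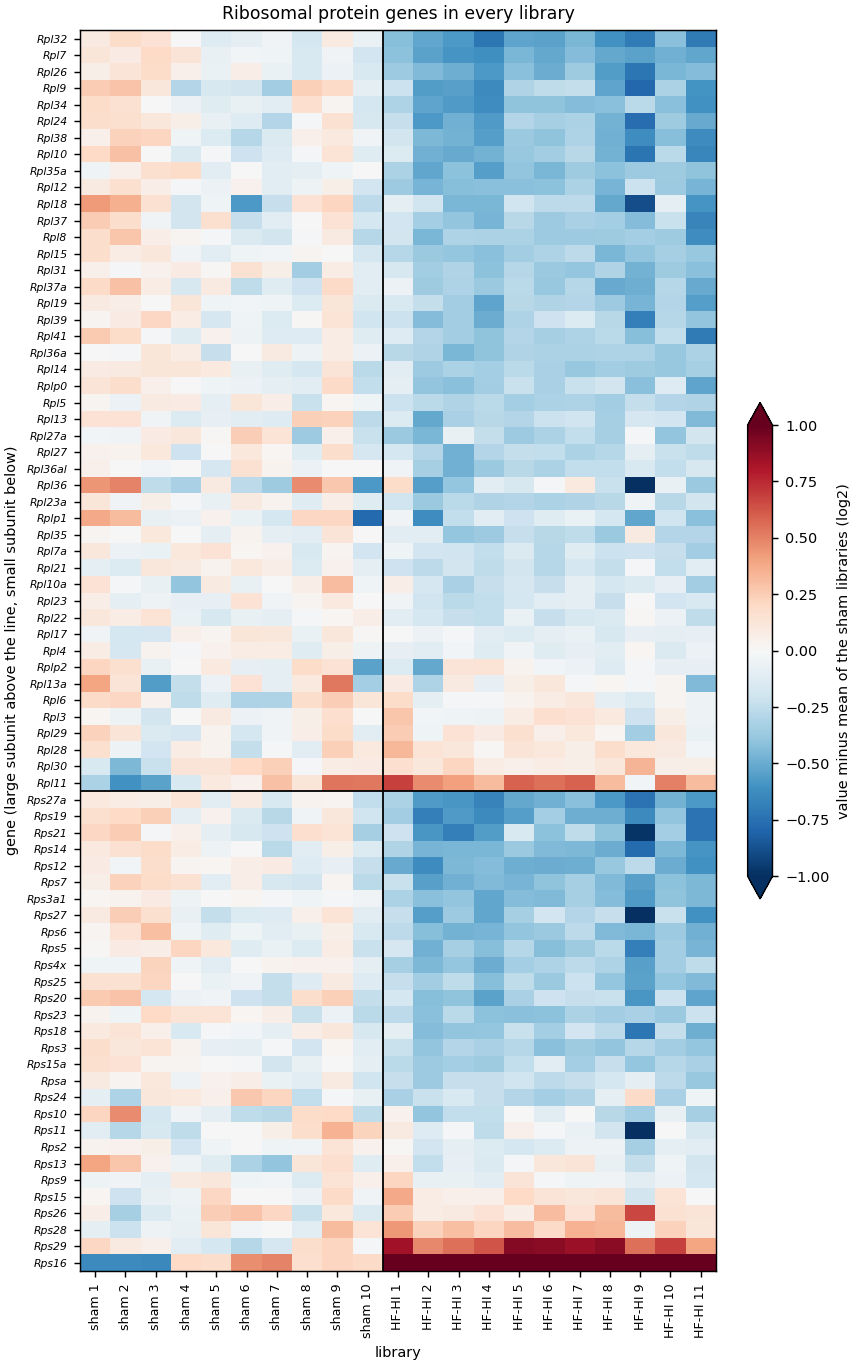
Value of 75 members in each of the 21 libraries minus the mean of the sham libraries (log2 colour scale from -1 to 1, with stronger values at the end colours), large subunit genes above the horizontal line and small subunit genes below it, sham left and HF-HI right of the vertical line. Most rows are blue across the HF-HI columns, and the rows of Rps16, Rps29 and Rpl11 turn red.

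Averaged over the 77 members other than Rps16, the value per library was 10.42 to 10.67 in sham (median 10.52) and 10.21 to 10.45 in HF-HI (median 10.31). In 10 of 11 HF-HI libraries it was below the lowest sham library, and HF-HI library 1 overlapped sham library 10. The members varied together to a limited degree inside a group. The median correlation between pairs of them was 0.31 over the 10 sham and 0.38 over the 11 HF-HI libraries, values that share library, depth and base composition. Their SD within a group, with a median of 0.14 in sham and 0.12 in HF-HI, was above that of all genes (0.11 and 0.09).

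Depth and base composition also differed between the libraries. Relative depth, estimated from the spacing of the values with the median library at 1, was 0.58 to 1.26 in sham and 0.55 to 1.64 in HF-HI. The slope of a library's deviations on exonic GC content was -0.23 to 0.01 per 10 percentage points in sham and -0.04 to 0.16 in HF-HI, above the highest sham library in 10 of 11. Over the 77 members the difference had a Spearman rho of 0.14 with GC content, 0.07 with transcript length and -0.32 with the sham value, and over 5539 genes of the table its rho with GC content was 0.48. With the GC trend removed 62 members were lower and 6 higher, with a median of -0.37, against 31.0% lower and 29.2% higher over all genes. With relative depth as a covariate 59 members were lower and 7 higher, with a median of -0.33, against 33.4% and 32.2% over all genes. Sharing of sequence was common too, since 25 members share every coding window with another annotated gene. Of the 22 members with under 50% of windows shared, counting Rpl41 whose coding sequence is shorter than a window, 18 fell and 0 rose by limma, and the other 4 did not pass. Of the 56 with 50% or more shared 40 fell and 6 rose.

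**Figure D5:**
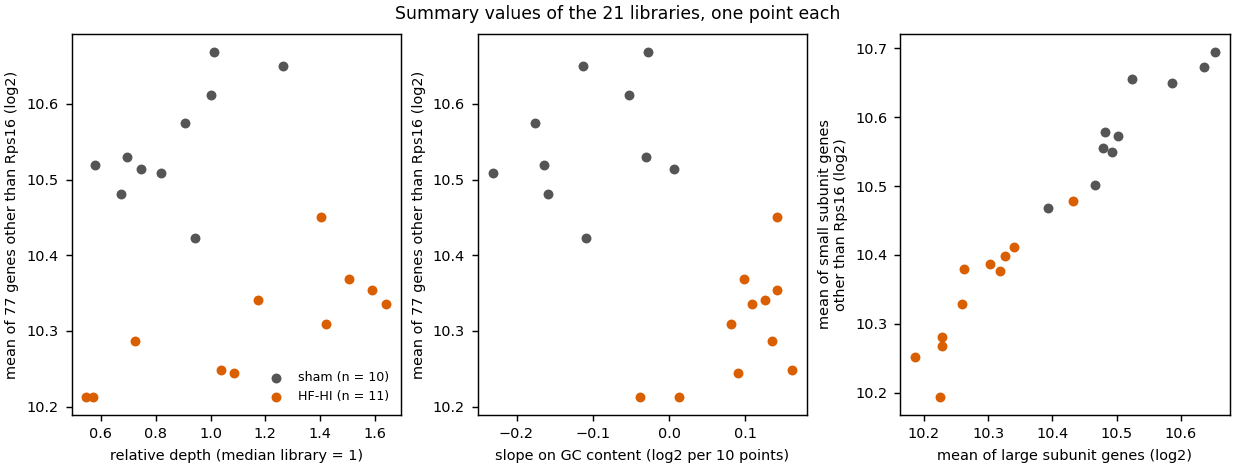
One point per library (10 sham, 11 HF-HI): the mean of the 77 members other than Rps16 against relative depth (left) and against the library's slope on GC content (middle), and the mean of the small against that of the large subunit genes (right), all means in log2 units. HF-HI libraries lie lower, with HF-HI library 1 above sham library 10, and at higher GC slopes with the exception of HF-HI library 9; in the right panel both means are lower in HF-HI.

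Ribosomal proteins whose symbols the rule does not cover were looked at beside the members. Rack1, a signalling scaffold on the small subunit head, went from 10.65 to 11.05 in sham to 10.36 to 10.60 in HF-HI without overlap, a fall of 0.38. Fau, whose product carries a small subunit protein, did not pass (-0.19, adjusted p = 0.102), although it passed after centring on medians (-0.24, adjusted p = 0.0369), with the GC trend removed (-0.46, adjusted p = 7.05e-05) and with relative depth as a covariate (-0.28, adjusted p = 0.0177). Of 5 mitochondrial ribosomal protein genes 2 fell (Mrps33 by 0.29 and Mrpl48 by 0.11) and 3 did not pass, with a median of -0.08. After centring on library medians and after quantile normalization 4 of the 5 were lower, and the Mrpl48 call was lost with the GC trend removed (adjusted p = 0.0603), with the replicate block (0.0517) and without sham 1 to 3 (0.0764).

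Lists of genes that act around the ribosome are given by their counts beside the 33.6% lower and 32.6% higher over all genes. Of 38 initiation factor genes 16 fell (42.1%) and 12 rose (31.6%), with a median of -0.01, and 18 fell and 7 rose after centring on library medians; Eif3m, of the scaffold that loads mRNA, fell by 0.39 and Eif4g3, of the cap-binding complex, rose by 0.35. Among the 11 of 14 listed elongation and release genes that were measured 5 fell and 5 rose. After centring or with the GC trend removed 5 fell and 3 rose. Tpt1, a TOP mRNA like the members, fell by 0.59, from 11.80 to 12.32 in sham to 11.34 to 11.75 in HF-HI. Eef1a1, the general form of the factor that brings tRNAs, fell by 0.31, and Eef1a2, the form of mature neurons and muscle, rose by 0.36, both without overlap. With the GC trend removed the Eef1a2 call was lost (0.06, adjusted p = 0.379). Eef2, which moves the ribosome along, rose by 0.40, and by 0.19 with the GC trend removed.

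Many listed genes had no row in the table. Measured were 20 of 76 listed ribosome assembly genes and 3 of 20 RNA polymerase I genes. The same held for 19 of 26 regulators of TOP mRNAs and mTORC1 and 14 of 22 quality control genes. Of the 20 ribosome assembly genes measured 8 fell (40%) and 4 rose (20%), with a median of -0.05. Their largest change was a rise of Nop56, a core protein of box C/D snoRNPs, by 0.36. Among 3 RNA polymerase I genes the factor Ubtf rose by 0.23 and Rrn3 fell by 0.16, and the Ubtf call was lost with the GC trend removed (0.0047, adjusted p = 0.931). Of 19 regulators of TOP mRNAs and mTORC1 9 rose (47.4%) and 5 fell (26.3%), with a median of 0.05; Pdcd4, an inhibitor of initiation, rose by 0.51 and Tsc2, an inhibitor of mTORC1, by 0.41 (0.25 with the GC trend removed). Pcbp1 rose by 0.31, a call that was lost with the GC trend removed (0.08, adjusted p = 0.415). Of 14 ribosome quality control genes 4 rose (28.6%) and 5 fell (35.7%), with Gcn1l1, a sensor of colliding ribosomes, higher by 0.30 and the ubiquitin ligase Ltn1 lower by 0.23. The quality control counts were 2 higher and 7 lower after centring, and with the GC trend removed the assembly counts were 2 higher and 7 lower and those of the regulators 8 higher and 2 lower. With the GC trend removed the differences were 0.15 for Gcn1l1 and -0.15 for Ltn1, and both passed.

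Markers of cortical excitatory neurons, which check the tissue label, were measured for 10 of 13 listed genes and had a mean level of 10.25 to 10.49 in sham and 10.61 to 10.83 in HF-HI. Of these 10 genes 7 rose, led by Tbr1 (1.02), Slc17a7 (0.89) and Cux2 (0.57). After centring on library medians 6 rose and 1 fell, after quantile normalization 7 and 1, and with the GC trend removed 7 and 0. Of 6 inhibitory neuron markers 3 rose and 0 fell, which became 3 and 1 after centring. Over all genes 32.6% were higher and 33.6% lower, and 33.3% of the astrocyte and of the oligodendrocyte markers were higher. Of 9 astrocyte markers 3 rose and 2 fell, which became 1 and 3 after centring on library medians, 1 and 4 after quantile normalization, and 2 and 4 with the GC trend removed. Of 9 oligodendrocyte markers 3 rose and 0 fell, which became 3 and 2, 3 and 3, and 2 and 2 under the same settings. Of 3 microglial markers measured, from 12 listed, 2 fell and 1 rose, with Ctss lower by 0.30 and Csf1r higher by 0.13. The Csf1r call was lost after centring on library medians (adjusted p = 0.144), quantile normalization (0.0711) and removal of the GC trend (0.94). Of 2 endothelial markers 1 rose and 1 fell, no blood marker of 2 passed, and of 4 markers of regions outside the cortex 1 fell. The mean level of these 4 markers was 8.71 to 10.10 in sham and 8.64 to 10.02 in HF-HI. Markers measured were 6 of 8 listed for inhibitory neurons, 9 of 11 for astrocytes and 9 of 12 for oligodendrocytes. For endothelium they were 2 of 9, for blood 2 of 5 and for regions outside the cortex 4 of 12. The part of cell composition in the ribosomal protein result was not tested.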

How the data were processed

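Cortical RNA of 10 sham and 11 HF-HI mice was sequenced by the authors as stranded total RNA libraries after rRNA removal, aligned to mm10 with STAR and counted per transcript with eXpress; the annotation and the versions of STAR and eXpress are not given in the sources used here. The values the authors deposited were variance-stabilized with DESeq2 and are on a log2 scale, 1 per Ensembl gene and library, so no count test was run. Reads shared between near-identical copies may have been split by that counting, and a fold is 2 to the power of a difference on this scale.

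Symbols, positions and GC content came from the GENCODE annotation of GRCm38, the assembly of mm10, and 5541 of 5544 identifiers matched a symbol. Groups came from the sample labels and the comparison used limma 3.58.1 under R 4.3.3 (mean-variance trend, two-sided, Benjamini-Hochberg over all genes, adjusted p under 0.05), and summaries used Python 3.11.15. Total depth is unknown. Relative depth was estimated from the step between neighbouring values, taken off the log scale, in the range 500 to 600, and precision rests on the spread between mice.

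Members named were Rps16, those called against the main direction, the 10 largest changes and a fixed set of structural landmarks; the members and lists were chosen with earlier results of these data known, and the head, tunnel, P-stalk and 5S groups after the values were seen. A few genes that this rule or the lists would name are not reported here one by one and stay in the counts. A list is described by its counts and median, without a test. Alternatives were other thresholds, tests, normalizations, a filter on low values, GC and length trends, a replicate block, leaving out each library, and, added later, leaving out sham 1 to 3 and a depth covariate.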

Additional observations from a re-analysis of the deposited data

Results flagged for a closer look

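Among the 10 sham libraries, a member was looked at again where its highest or lowest library lay farther from the next than Dixon's 95% limit for this number. Of 77 values examined, those of 75 members and 2 summaries, 5 were picked out, and chance picks out about 1 in 20. Rplp1 was low in sham library 10, at 10.95, and Rplp2, its partner in the P-stalk, was low in the same library, at 9.56. In sham library 3 Rps4x was high, at 11.02. Rpl31 was low in sham library 8, at 10.63, and Rpl36a was low in sham library 5, at 9.49. The calls of Rps4x, Rpl31 and Rpl36a held in each of the 21 fits that left out 1 library.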

How the results depend on the processing

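No member called by limma changed sign under any alternative. The members passing were 51 to 68 under other thresholds, tests, normalizations and corrections, 62 to 66 when 1 library was left out, and 59 without sham 1 to 3, where Rpl10a, Rpl11, Rpl18, Rplp1, Rps2 and Rps26 were lost. The median of the members was -0.37 to -0.29 under those settings, -0.27 without sham 1 to 3 (large -0.25, small -0.29), and -0.33 to -0.29 when 1 library was left out; leaving out 1 library gave -0.32 to -0.26 for the large subunit and -0.36 to -0.32 for the small. The large subunit median became -0.38 with the GC trend removed and -0.37 with that and the replicate block. Rps16 differed by 3.22 to 3.55 under those settings and by 3.48 to 3.61 when 1 library was left out, and by 3.28 without sham 1 to 3 and 3.64 with depth as a covariate. Of all genes 3674 passed, 3562 to 3805 when 1 library was left out, and 1433 when a difference of at least 0.25 was also asked. Centring library medians moved the split of all genes from 1810 higher and 1864 lower to 1448 and 2376; the median of all genes went from -0.01 to -0.06. Of the members named, Rpl3 turned from 0.041 to -0.011 after centring, to -0.036 with the GC trend removed, to -0.031 with that and the replicate block, and to -0.011 with depth as a covariate, and Rpl28, which did not pass either, turned from 0.11 to -0.025 with the GC trend removed and to -0.018 with that and the replicate block; the cause was not tested. Outside the members, Csf1r turned to -0.0038 with the GC trend removed and Ubtf to -0.0048 with GC and length trends removed, neither passing there. Named genes that still passed but moved by over 1.5 times with the GC trend removed included Rpl38 (-0.70), Rplp0 (-0.47), Rplp1 (-0.46), Eef2 (0.19), Tsc2 (0.25), Gcn1l1 (0.15) and Ltn1 (-0.15), and with GC and length trends removed Rpl5 (-0.16), Eif3m (-0.23), Mrps33 (-0.16) and Cux2 (0.35) did so too.

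Replicate numbers of sham and HF-HI did not pair the samples: correlations of same-numbered libraries ran from -0.31 to 0.36, with 4 of 10 above 0.1 and 0 of 10 matching best with their own number. With the replicate block 3497 genes passed, 57 members fell and 7 rose with a median of -0.29 (large -0.28, small -0.33), and Rps16 differed by 3.55; the block ended the call of Rplp1 (adjusted p = 0.0941) and brought that of Rpl28 (0.0396). Depth in absolute counts is unknown, so the counting error of low values, such as Rps16 in sham, could not be estimated.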
